A study of Mus musculus with 6 samples.

Results

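The genes that hold RNA polymerase II near promoters and release it were followed in PRO-seq libraries of proliferating muscle stem cells (MuSCs): the NELF subunit genes *Nelfa*, *Nelfb*, *Nelfcd* and *Nelfe*, the DSIF subunit gene *Supt5*, the P-TEFb genes *Cdk9*, *Ccnt1* and *Ccnt2*, and the P-TEFb inhibitor genes *Hexim1* and *Larp7*. They were taken by symbol from the deposited table, which lists 14546 genes, and all 10 were among the 12451 genes that passed the filter on low values. The 6 libraries come from 3 Ctrl samples (Pax7CreERT/Suv4-20h1WT) and 3 Kmt5b sKO samples (Pax7CreERT/Suv4-20h1KO), and Suv4-20h1 is the older name of Kmt5b, which adds the second methyl group to histone H4 lysine 20. Both groups carry the Pax7CreERT allele, a tamoxifen-dependent Cre driven from the *Pax7* locus. The donors were adult mice of both sexes on a C57BL/6 background, and the MuSCs were purified with magnetic beads and expanded in culture before nuclei were taken. PRO-seq labels the RNA that engaged polymerases are making in isolated nuclei, so the values are polymerase densities and not amounts of mRNA or protein. They are scaled within each library, so they are relative densities. A change of transcription common to all genes cannot be seen in them, and equal values do not mean equal polymerase per cell.

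A polymerase that has started a transcript commonly stops shortly downstream of the start site, where DSIF and NELF hold it. P-TEFb, a kinase made of CDK9 and a T-type cyclin, phosphorylates NELF, DSIF and the polymerase tail, after which NELF leaves and the polymerase moves into the gene body. Much of the P-TEFb of a cell is kept inactive in the 7SK ribonucleoprotein, in which HEXIM1 blocks the kinase and LARP7 protects the 7SK RNA. *Hexim1* transcription is known to respond to P-TEFb activity, and HEXIM1 was first described as a protein induced by hexamethylene bisacetamide, an agent that drives cell differentiation.

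No pausing or release gene passed the test between genotypes in any of 3 measures. The measures were the TSS region (the first 400 nt of the listed transcript, in RPM, which scales reads to a fixed library total), the gene body (from there to the transcript's end, in TPM, which also divides by length) and the pausing index, the former divided by the latter. In limma fits over all tested genes at an adjusted p under 0.1, 0 of 10 were called in the TSS region, where 1.66% of all tested genes were called, and 0 of 10 in the gene body, where 2.99% were. In the index 0 of 10 were called and 0% of 11698 genes, of which 3.86% had an unadjusted p under 0.05. In Kmt5b sKO MuSCs the gene body density of *Cdk9* was higher and that of *Larp7* lower without overlap between the groups, which 21.4% of all tested genes showed there. The TSS density of *Ccnt2* was higher without overlap (15.6% of all tested genes), and none of these passed the adjusted threshold. An unadjusted p under 0.05 was found for 1 gene in the TSS region (*Hexim1*), where 11% of all tested genes had one, for 2 in the gene body (*Cdk9* and *Larp7*), where 15.9% did, and for 0 in the index. The libraries are separate samples by their labels, and the methods name them biological replicates.

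The listed genes held between 926904 and 3246052 reads per library in their TSS regions and between 7425424 and 16249136 in their gene bodies. The targeted gene *Kmt5b* gave no check of the labels, since its gene body density was 30.6 to 38.5 TPM in Ctrl, against 35.0 to 42.6 TPM in Kmt5b sKO. Its TSS region was higher in Kmt5b sKO without overlap, at 87.3 to 101.5 RPM in Ctrl against 107 to 120 RPM. In this direction 10.2% of all tested genes showed that pattern. Of 10 MuSC and myoblast markers 9 were listed, with a summed gene body level of 1605 to 2356 TPM over the Ctrl libraries and 2120 to 2834 TPM in Kmt5b sKO. *Myod1* and *Des* made up most of these sums, and each single marker overlapped between genotypes. All 10 markers of differentiating myocytes and fibres were listed, and their sum was 1248 to 2816 TPM in Ctrl, against 2915 to 4068 TPM in Kmt5b sKO, without overlap. Taken singly, *Myh3*, *Acta1* and *Mb* were higher in Kmt5b sKO without overlap, and the rest overlapped. Sums of 3 listed endothelial markers (2.50 to 4.23 TPM in Ctrl, against 4.38 to 5.05 TPM in Kmt5b sKO) and of 4 Schwann cell markers (8.75 to 11.7 TPM against 15.8 to 25.8 TPM) were also higher in Kmt5b sKO without overlap. Of these markers *Pecam1*, *Cdh5* and *Sox10* separated singly, and the rest overlapped. The 3 listed fibroblast markers summed to at most 8.95 TPM and overlapped. The part of these cell types in the results below was not tested. Leukocyte markers summed to 219 to 423 TPM, nearly all of it from *Cd68*. In such bulk samples a different number of cells of a type and a different polymerase density per cell cannot be told apart. Ctrl 3 stood apart in several of the genes below, and its values are given where they decide a result.

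The 4 genes with an unadjusted p under 0.1 in the TSS region or the gene body are shown with the 150 bases before their listed starts, read from GRCm38. *Cdk9* lies on the minus strand of chromosome 2 at 32707438 to 32712784 and has 7 exons, *Ccnt2* on the plus strand of chromosome 1 at 127774164 to 127808061 with 9 exons, and *Larp7* on the minus strand of chromosome 3 at 127536714 to 127553349 with 13 exons. *Hexim1*, on the plus strand of chromosome 11 at 103116231 to 103119725, has a single exon, and its whole TSS region is exonic and untranslated. The windows are printed 5′ to 3′ on the strand of the gene. Capitals mark matches on either strand to the GC box (GGGCGG or CCGCCC), the CCAAT box (CCAAT or ATTGG), the CRE (TGACGTCA), the ETS motif (CCGGAAG or CTTCCGG) and a TATA variant (TATATAA or TTATATA).
*Cdk9*, chr2:32712785-32712934, minus strand: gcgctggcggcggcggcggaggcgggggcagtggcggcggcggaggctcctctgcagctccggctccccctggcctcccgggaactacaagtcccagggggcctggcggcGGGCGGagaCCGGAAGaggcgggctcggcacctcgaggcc
*Ccnt2*, chr1:127774014-127774163, plus strand: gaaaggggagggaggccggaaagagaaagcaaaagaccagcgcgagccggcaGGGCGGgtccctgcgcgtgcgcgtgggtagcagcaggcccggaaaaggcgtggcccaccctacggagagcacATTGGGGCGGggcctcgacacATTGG
*Hexim1*, chr11:103116081-103116230, plus strand: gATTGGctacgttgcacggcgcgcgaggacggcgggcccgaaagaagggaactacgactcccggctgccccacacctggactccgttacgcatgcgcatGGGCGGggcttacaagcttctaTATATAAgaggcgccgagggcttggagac
*Larp7*, chr3:127553350-127553499, minus strand: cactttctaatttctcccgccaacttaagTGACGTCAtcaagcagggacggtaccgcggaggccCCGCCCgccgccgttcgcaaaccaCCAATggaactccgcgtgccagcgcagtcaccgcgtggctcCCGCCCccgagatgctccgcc

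A GC box was found before 9 of the 10 genes, all but *Nelfa*, and before 54.0% of 12446 windows of the same length. A CCAAT box was found before *Ccnt2*, *Hexim1* and *Larp7* and in 27.7% of all windows. In the *Ccnt2* window a CCAAT box 26 nt before the start and a GC box 22 nt before it share 1 base. The CRE was found only before *Larp7* (2.47% of all windows) and the ETS motif only before *Cdk9* (11.1%). None of the 10 held TATAAA (3.14% of all windows), CACGTG (6.04%) or the NRF1 motif (1.27%). The variant TATATAA, searched after the *Hexim1* window had been seen, starts 29 nt before the listed *Hexim1* start and is in 0.627% of all windows. The nearest RefSeq start was the listed one for *Cdk9*, *Ccnt2*, *Larp7*, *Nelfb* and *Supt5*, and lay 94 nt away for *Hexim1*. The windows of the 10 genes had a median GC content of 64.3%, against 63.3% over all windows. These matches describe letters only, with no binding measured.

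The gene bodies fell into a broadly similar order in both genotypes. *Hexim1* had by far the highest polymerase density per length, 98.6 TPM over the 6 libraries, higher than 95.5% of the tested genes. *Ccnt1* (38.9 TPM), *Ccnt2* (35.2 TPM), *Cdk9* (31.4 TPM) and *Supt5* (29.7 TPM) followed, and each overlapped the next over the 6 libraries. *Nelfcd*, *Nelfb* and *Nelfa* lay between 15.7 and 16.8 TPM and overlapped one another, close to the median of all tested genes (15.8 TPM). *Larp7* (11.1 TPM) and *Nelfe* (9.57 TPM) were lowest and overlapped too. In Ctrl MuSCs *Cdk9* was below *Ccnt2* without overlap. In Kmt5b sKO MuSCs *Ccnt2* overlapped both *Ccnt1* and *Cdk9*, while *Cdk9* stayed below *Ccnt1* without overlap.

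**Figure D1:**
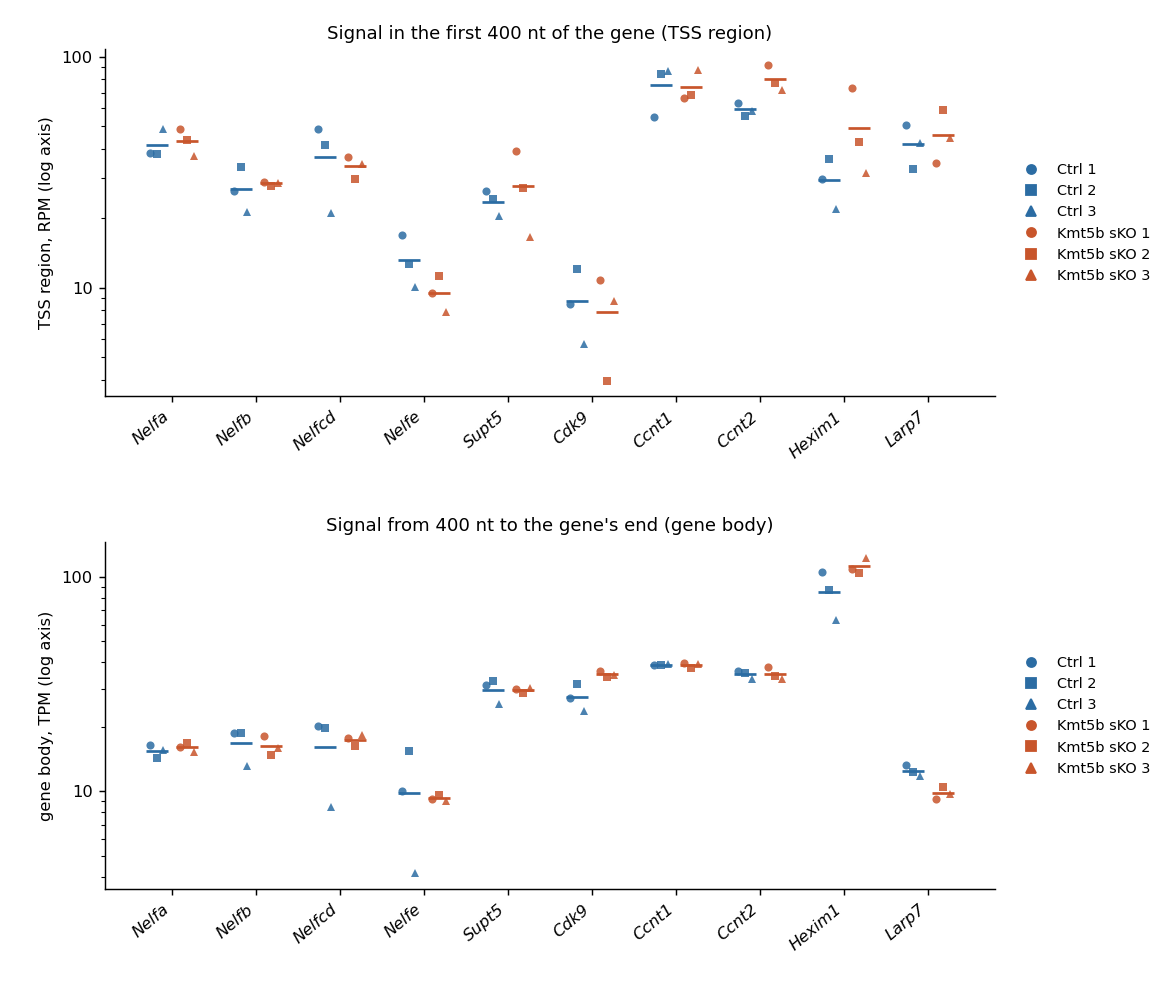
Polymerase density of the 10 pausing and release genes in each library, as RPM in the TSS region (top) and TPM in the gene body (bottom), on log axes. Each point is a library (Ctrl blue, Kmt5b sKO orange, shape for the replicate) and bars are group means. In the gene body the 3 Kmt5b sKO points of *Cdk9* lie above and those of *Larp7* below the Ctrl points, and Ctrl 3 is far below the rest for *Nelfcd* and *Nelfe*.

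Among the genes of the pause-holding factors, *Nelfa*, *Nelfb* and *Supt5* overlapped between genotypes in both regions, and their gene body means in Kmt5b sKO were 1.04, 0.970 and 0.995 of those in Ctrl. For *Nelfa*, which encodes the NELF subunit that contacts the polymerase, gene body densities were 16.4, 14.3 and 15.5 TPM in Ctrl 1 to 3, against 16.2, 16.8 and 15.2 TPM in Kmt5b sKO 1 to 3. The libraries differed at most 1.17-fold, and the log2 fold change of Kmt5b sKO over Ctrl was 0.06 (SE 0.13, limma adjusted p = 0.882). *Nelfa* TSS values were 38.3, 37.9 and 48.9 RPM in Ctrl, against 48.8, 43.6 and 37.3 RPM in Kmt5b sKO, and the groups overlapped. *Nelfb* encodes a core subunit of the complex. Its gene body held 18.6, 18.7 and 13.1 TPM in Ctrl, against 18.2, 14.8 and 15.9 TPM in Kmt5b sKO, a log2 fold change of -0.03 (SE 0.18). Its TSS region held 26.1, 33.3 and 21.2 RPM against 28.9, 27.7 and 28.5 RPM, with the Kmt5b sKO libraries inside the Ctrl range.

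*Nelfcd* and *Nelfe* differed more among the Ctrl libraries than between genotypes. The gene body of *Nelfcd*, which encodes the NELF-C and NELF-D forms, held 20.2, 19.8 and 8.42 TPM in Ctrl, against 17.8, 16.2 and 18.3 TPM in Kmt5b sKO. The gene body of *Nelfe*, the RNA-binding subunit, held 10.1, 15.4 and 4.14 TPM in Ctrl, against 9.19, 9.58 and 9.02 TPM in Kmt5b sKO. In both genes Ctrl 3 was the lowest library, at 0.422 of the mean of Ctrl 1 and 2 for *Nelfcd* and 0.325 for *Nelfe*. The log2 fold changes were 0.21 (SE 0.32) and 0.08 (SE 0.41), and without Ctrl 3 they became -0.19 (limma adjusted p = 0.447) and -0.41 (limma adjusted p = 0.314). For *Nelfe* the group means ran against the sign of the log2 fold change, at 9.87 TPM in Ctrl and 9.26 TPM in Kmt5b sKO, and edgeR (-0.083) and DESeq2 (-0.089) on recovered reads of all 6 libraries were below 0. The *Nelfcd* TSS region showed the same low Ctrl 3, with 48.7, 41.4 and 21.03 RPM in Ctrl against 36.7, 29.7 and 34.5 RPM. *Nelfe* TSS values were 17.0, 12.6 and 10.04 RPM in Ctrl, against 9.51, 11.2 and 7.82 RPM in Kmt5b sKO, a log2 fold change of -0.44 (SE 0.35, limma adjusted p = 0.745). Only 33 to 98 reads per library lay behind the *Nelfe* gene body values and 17 to 70 behind its TSS values.

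*Supt5* encodes the large DSIF subunit, which stays with the polymerase through elongation. Its gene body held 31.5, 32.6 and 25.4 TPM in Ctrl, against 30.1, 28.7 and 30.2 TPM in Kmt5b sKO, and the means (29.8 and 29.7 TPM) were as good as equal, with a log2 fold change of 0.00 (SE 0.14). Its TSS values spread widely among the Kmt5b sKO libraries, at 39.0, 27.1 and 16.6 RPM, around Ctrl values of 26.1, 24.1 and 20.5 RPM. Kmt5b sKO 1 was the highest and Kmt5b sKO 3 the lowest of the 6 libraries.

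*Cdk9*, the kinase of P-TEFb, had a higher gene body density in all Kmt5b sKO libraries. It held 27.4, 31.6 and 23.6 TPM in Ctrl, against 36.4, 34.3 and 35.0 TPM in Kmt5b sKO, on 111 to 200 reads per library. The group means were 27.5 ± 3.99 and 35.2 ± 1.08 TPM (SD, n = 3 each), a 1.28-fold difference, and the Kmt5b sKO libraries differed from each other by much less than the Ctrl libraries did. From read counts alone, Poisson 95% intervals in Kmt5b sKO were 31.5 to 41.8, 28.2 to 41.3 and 29.8 to 40.7 TPM, wider than the differences among these libraries. In Ctrl they were 23.7 to 31.5, 27.1 to 36.6 and 20.2 to 27.5 TPM. The interval of Ctrl 2 overlapped all 3 of Kmt5b sKO, and that of Ctrl 3 none. The log2 fold change was 0.36 (SE 0.14, limma unadjusted p = 0.0361, adjusted p = 0.279). All 3 Kmt5b sKO values lay above all Ctrl values, a pattern shown by 12% of all tested genes in this direction and by 21.4% in either. Ctrl 3 was again the lowest library, and without it the log2 fold change was 0.25. TSS values of *Cdk9* overlapped, with 8.47, 12.1 and 5.68 RPM in Ctrl, against 10.8, 3.96 and 8.74 RPM in Kmt5b sKO, and only 6 to 35 reads lay behind these values.

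The cyclin genes *Ccnt1* and *Ccnt2* had near-equal gene body means in both genotypes. *Ccnt1* held 38.7, 38.9 and 39.3 TPM in Ctrl, against 39.6, 37.8 and 39.3 TPM in Kmt5b sKO, so that the highest library was 1.05-fold over the lowest, the smallest spread of the 10 genes. *Ccnt2* held 36.4, 35.7 and 33.2 TPM in Ctrl, against 38.0, 34.5 and 33.3 TPM in Kmt5b sKO, and both log2 fold changes rounded to 0.00 (SE 0.11 and 0.12). These are among the best-covered gene bodies of the group, with 595 to 1785 reads.

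In the TSS region *Ccnt2*, but not *Ccnt1*, had groups that did not overlap. *Ccnt2* values were 63.4, 55.7 and 58.5 RPM in Ctrl, against 92.1, 77.3 and 72.2 RPM in Kmt5b sKO. All 3 Kmt5b sKO libraries were above all Ctrl libraries, as in 10.2% of all tested genes in this direction and 15.6% in either, and *Ccnt2* was the only 1 of the 10 to show this in the TSS region. The means were 59.2 ± 3.89 and 80.5 ± 10.3 RPM (SD, n = 3 each), a 1.36-fold difference with a log2 fold change of 0.43 (SE 0.21, limma unadjusted p = 0.0566, adjusted p = 0.479). *Ccnt1* TSS values were 54.7, 84.5 and 86.6 RPM in Ctrl, against 66.2, 68.7 and 87.9 RPM in Kmt5b sKO, which overlapped, with a log2 fold change of 0.00 (SE 0.23). Whether the cyclins differ in their change was not tested. A non-coding gene on the other strand starts 72 nt upstream of *Ccnt2*, and another overlaps the *Ccnt1* TSS region, and the authors' counts were made on the sense strand.

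*Hexim1*, whose product blocks P-TEFb, was higher on average in Kmt5b sKO MuSCs in both regions, with overlapping groups. Its gene body held 106, 86.9 and 62.9 TPM in Ctrl, against 109, 104 and 122.7 TPM in Kmt5b sKO. Ctrl 1 lay inside the Kmt5b sKO range and Ctrl 3 was the lowest library, and the means were 85.2 ± 21.5 and 112 ± 9.56 TPM (SD, n = 3 each). The log2 fold change was 0.42 (SE 0.20, limma unadjusted p = 0.0715, adjusted p = 0.372), and 0.22 without Ctrl 3. TSS values were 29.5, 36.2 and 21.97 RPM in Ctrl, against 73.4, 42.9 and 31.3 RPM in Kmt5b sKO. Kmt5b sKO 1 was far above the other libraries and Kmt5b sKO 3 was inside the Ctrl range. The log2 fold change of 0.68 (SE 0.30, limma unadjusted p = 0.0342, adjusted p = 0.39) was the largest of the 10 genes in this region and became 0.35 without Kmt5b sKO 1. Like the *Hexim1* gene body, the summed level of the 10 markers of differentiating myocytes and fibres was lowest in Ctrl 3 (1248 TPM) and highest in Kmt5b sKO 3 (4068 TPM). The Kmt5b sKO libraries had the same order in both. Ctrl 1 and 2 ran opposite ways, at 106 and 86.9 TPM for the *Hexim1* gene body and 2071 and 2816 TPM for the marker sum. The *Hexim1* TSS region was also lowest in Ctrl 3 but highest in Kmt5b sKO 1. The part of these markers in the *Hexim1* values was not tested.

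*Larp7*, whose product shields the 7SK RNA, had a lower gene body density in all Kmt5b sKO libraries. It held 13.3, 12.3 and 11.9 TPM in Ctrl, against 9.25, 10.5 and 9.69 TPM in Kmt5b sKO, on 112 to 315 reads. The means were 12.5 ± 0.728 and 9.82 ± 0.650 TPM (SD, n = 3 each), and the Kmt5b sKO mean was 0.788 of the Ctrl mean. The log2 fold change was -0.33 (SE 0.13, limma unadjusted p = 0.0415, adjusted p = 0.293), and 9.34% of all tested genes had all Kmt5b sKO values below all Ctrl values. Leaving out any 1 library moved it little, from -0.38 to -0.29. TSS values of *Larp7* overlapped, with 50.8, 32.8 and 42.2 RPM in Ctrl, against 34.8, 58.8 and 44.6 RPM in Kmt5b sKO. A cluster of miRNA genes lies inside *Larp7* on the opposite strand, and *Zgrf1* starts 140 nt upstream on that strand.

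**Figure D2:**
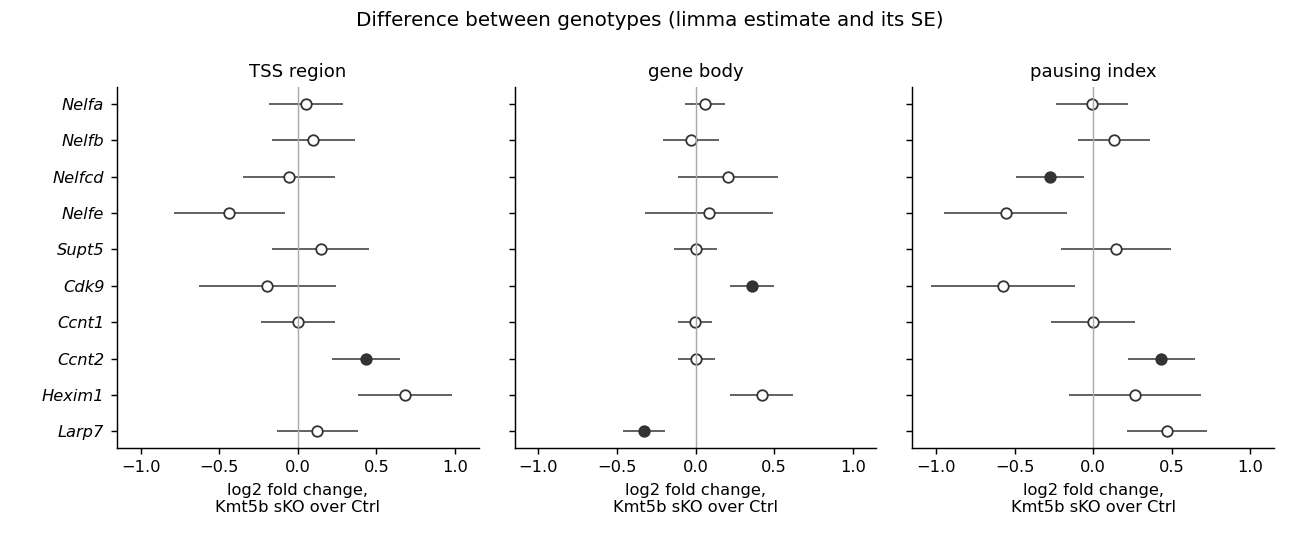
Log2 fold change of Kmt5b sKO over Ctrl for each gene (points) with its standard error from limma (bars), in each of the 3 measures. Filled points mark genes whose 3 Kmt5b sKO libraries lie all above or all below the 3 Ctrl libraries. *Cdk9* (0.36) and *Larp7* (-0.33) are filled in the gene body and *Ccnt2* (0.43) in the TSS region, and no gene passed the adjusted threshold.

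The 10 genes had median log2 fold changes of 0.08 (TSS region), 0.03 (gene body) and 0.07 (index), beside 0.08, 0.02 and 0.05 over all tested genes. Values above 0 were found for 6 of 10 genes in the TSS region (58.2% of all genes), 7 in the gene body (53.8%) and 6 in the index (57.3%). In 3 of these cases the Kmt5b sKO mean was below the Ctrl mean on the linear scale (*Nelfe* and *Supt5* in the gene body, *Ccnt1* in the index).

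The pausing index separated the genes more than it separated the genotypes. *Larp7* had the highest mean index over the 6 libraries, 4.001, above 87.7% of the tested genes. *Cdk9* (0.266) and *Hexim1* (0.397) had the lowest, under all but 4.21% and 7.65% of the tested genes, so that the P-TEFb kinase and its inhibitor carried little polymerase near the start for what their bodies held. Both also have the shortest gene bodies of the 10, 4946 and 3094 nt. The other 7 genes lay between 0.861 for *Supt5* and 2.70 for *Nelfa*, against a median of 1.59 over all tested genes. In the order of means over the 6 libraries each gene overlapped its neighbours.

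**Figure D3:**
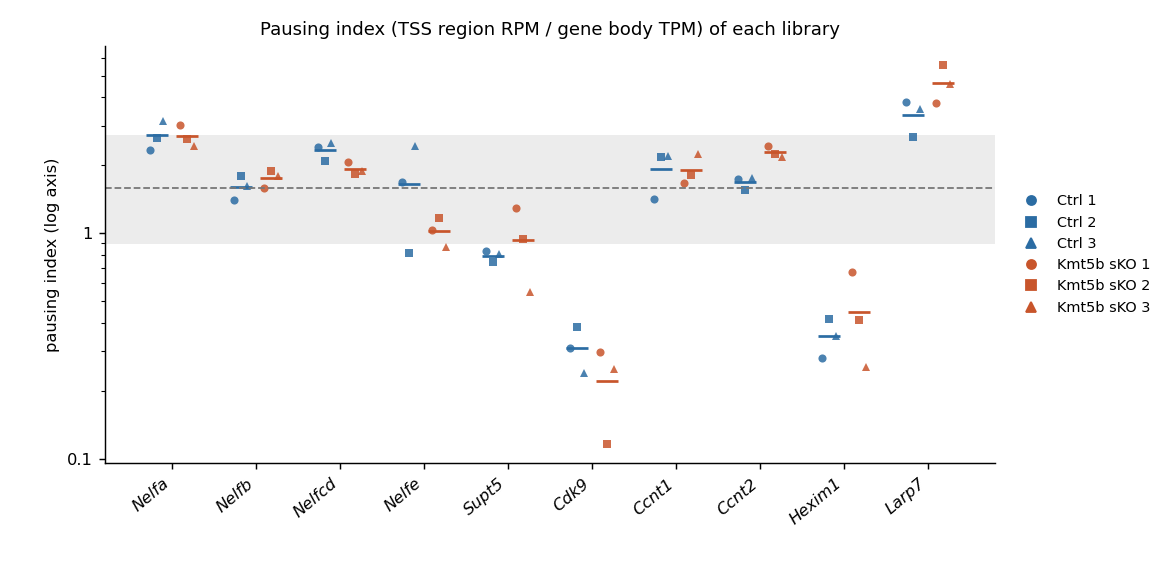
Pausing index (TSS RPM over gene body TPM, log axis) of the 10 genes in each library, with group means as bars. The dashed line is the median of all tested genes (1.59) and the grey band spans their middle 50% (0.895 to 2.73). *Larp7* lies above the band on average, and *Cdk9* and *Hexim1* lie below it in every library.

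In 2 of the 10 genes the index did not overlap between genotypes, and 9.02% of the tested genes showed this, 5.93% with Kmt5b sKO higher and 3.09% with it lower. The *Ccnt2* index was 1.74, 1.56 and 1.76 in Ctrl libraries, against 2.42, 2.24 and 2.17 in Kmt5b sKO. Its log2 fold change was 0.43, as in its TSS region (SE 0.21, limma unadjusted p = 0.0753, adjusted p = 0.9997). The *Nelfcd* index was 2.41, 2.09 and 2.50 in Ctrl libraries, against 2.07, 1.83 and 1.89 in Kmt5b sKO. The low Ctrl 3 of *Nelfcd* was shared by both regions, while its index there was the highest of the 6 libraries. The log2 fold change was -0.27 (SE 0.22, limma unadjusted p = 0.238). The index rests on the separate scaling of both regions in each library, so it sets a gene against the other genes of that library. A change of pausing common to all genes cannot be seen in it. The unscaled totals differed, at 1066287 TSS and 13582345 gene body reads in Ctrl 2, and 3246052 and 14241375 in Ctrl 3. From unscaled reads per nt the errors were larger, with log2 fold changes of 0.39 (SE 0.57) for *Ccnt2* and -0.32 (SE 0.57) for *Nelfcd*.

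In the other 8 genes the index overlapped between genotypes. The *Larp7* index was 3.83, 2.67 and 3.56 in Ctrl libraries, against 3.76, 5.58 and 4.605 in Kmt5b sKO, where Kmt5b sKO 1 lay inside the Ctrl range (log2 fold change 0.47, SE 0.25). The *Cdk9* index was 0.309, 0.382 and 0.240 in Ctrl libraries, against 0.297, 0.116 and 0.250 in Kmt5b sKO. Its log2 fold change of -0.58 (SE 0.46) became -0.16 without Kmt5b sKO 2, which had 6 TSS reads. The fewest TSS reads in every library were those of *Cdk9* (6 to 35) or *Nelfe* (17 to 70). The *Nelfe* index ranged from 0.819 to 2.43 among the Ctrl libraries alone and from 0.867 to 1.17 in Kmt5b sKO. The *Hexim1* index was 0.279, 0.417 and 0.349 in Ctrl libraries, against 0.672, 0.412 and 0.255 in Kmt5b sKO, where the highest and the lowest of the 6 values belong to the same genotype. The same held for *Supt5*, with 0.741 to 0.830 in Ctrl and 1.30, 0.944 and 0.548 in Kmt5b sKO. *Nelfa* (2.34 to 3.15), *Nelfb* (1.403 to 1.88) and *Ccnt1* (1.41 to 2.24) stayed within these ranges over all 6 libraries, with log2 fold changes of -0.01, 0.13 and 0.00 (SE 0.23, 0.23 and 0.27).

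The balance between members of the P-TEFb system was read as a ratio of gene body levels within a library, which removes the scaling of that library. These pairs were set after the levels were known and are given as descriptions, and how often other gene pairs separate was not tested. *Hexim1* was 3.09 ± 0.673 times *Cdk9* in Ctrl and 3.18 ± 0.281 times in Kmt5b sKO (SD, n = 3 each), and the groups overlapped. *Larp7* was 0.458 ± 0.0610 of *Cdk9* in Ctrl and 0.280 ± 0.0266 in Kmt5b sKO, a separation already fixed by those of both genes in opposite directions. *Hexim1* over *Larp7* was 7.98, 7.07 and 5.31 in Ctrl, against 11.8, 9.89 and 12.7 in Kmt5b sKO. *Ccnt1* over *Cdk9* was 1.41, 1.23 and 1.66 in Ctrl, against 1.09, 1.10 and 1.12 in Kmt5b sKO, while *Ccnt1* over *Ccnt2* stayed at 1.11 ± 0.0626 and 1.11 ± 0.0682. Since *Ccnt1* differed at most 1.05-fold, its ratio to *Cdk9* restates the *Cdk9* separation. The ratio of *Hexim1* to *Larp7* likewise holds the *Larp7* separation, so neither is a further result.

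Ctrl 3 was the lowest of the 6 libraries in the gene body for 7 of the 10 genes, against 33.3% of all tested genes. The exceptions were *Nelfa*, *Ccnt1* and *Larp7*. All 5 genes with a gene body under 12000 nt (*Hexim1*, *Cdk9*, *Nelfe*, *Nelfcd* and *Nelfb*) were among the 7, at 0.325 to 0.801 of the mean of Ctrl 1 and 2, and the other 5 lay between 0.794 and 1.012. Over all tested genes the median log2 ratio of Ctrl 3 to Ctrl 1 and 2 was -0.25 for bodies under 5000 nt, -0.21 up to 12000 nt and -0.09 from 50000 nt. *Nelfe* (-1.62) and *Nelfcd* (-1.24) lay well under the lower quartile of genes of like length (-0.57). The part of gene length in the member values was not tested.

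**Figure D4:**
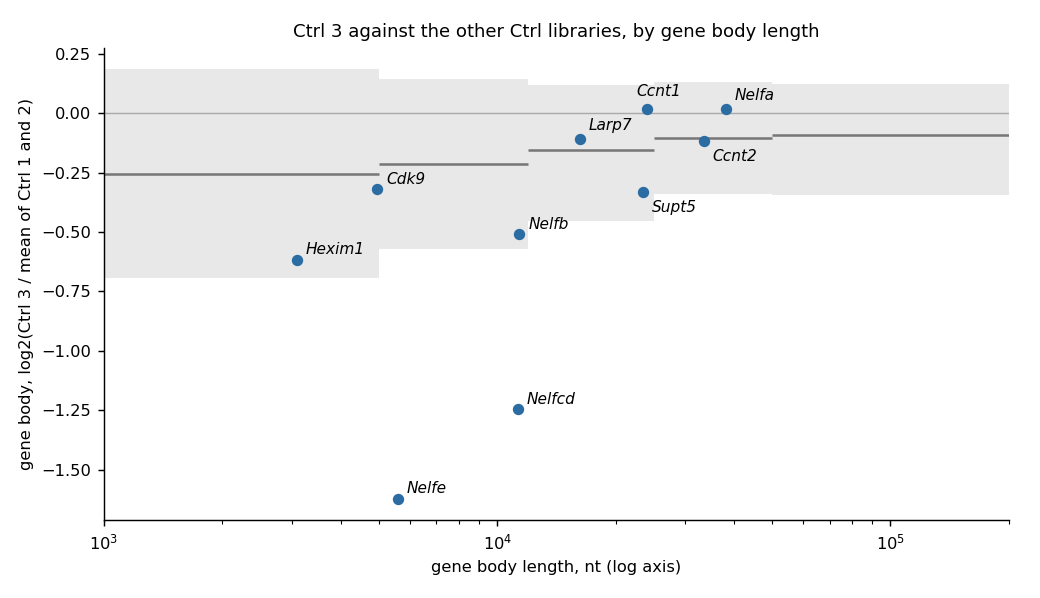
Log2 ratio of the gene body level in Ctrl 3 to the mean of Ctrl 1 and 2 against gene body length (log axis). Blue points are the 10 genes, and grey lines and bands are the median and quartiles of all tested genes in 5 length classes. *Nelfe* (-1.62) and *Nelfcd* (-1.24) lie far below the band, and the genes over 12000 nt lie between -0.33 and 0.02.

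Other genes of the elongation machinery also had no calls in these limma fits. Of 50 listed elongation factors, 49 were tested (*Ell3* was not), and 0 passed the adjusted threshold in any measure. In the TSS region 3 had an unadjusted p under 0.05 in limma, all higher in Kmt5b sKO, against 11% of all tested genes. In the gene body 3 were higher and 2 lower at that level, against 15.9%, and 1 was higher in the index, against 3.86%. Their median log2 fold changes were 0.11, 0.02 and 0.10, beside 0.08, 0.02 and 0.05 over all tested genes.

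The highest gene body log2 fold changes of these factors were those of *Ell2* and *Mllt3*, both from the super elongation complex, which carries P-TEFb to paused polymerases. *Ell2*, an elongation factor that raises the polymerase's rate, held 15.3, 25.6 and 32.3 TPM in Ctrl, against 43.3, 37.3 and 46.0 TPM in Kmt5b sKO (log2 fold change 0.84, SE 0.26, limma adjusted p = 0.182). *Mllt3*, a chromatin reader of that complex, held 5.92, 5.83 and 5.16 TPM in Ctrl, against 8.01, 10.3 and 9.28 TPM in Kmt5b sKO (0.66, SE 0.16, limma adjusted p = 0.109). In both the groups did not overlap, as in 12% of all tested genes in this direction. The other 6 tested genes of that complex had gene body log2 fold changes between -0.17 (*Mllt1*) and 0.35 (*Eaf1*). At the other end were *Ssrp1*, a subunit of the histone chaperone FACT, with 35.1, 38.1 and 23.6 TPM against 23.4, 20.0 and 22.3 TPM (-0.52, SE 0.20), and the TFIIF gene *Gtf2f2* (-0.31, SE 0.15). In the TSS region the ends were *Ccnh*, the cyclin of the TFIIH kinase (0.79, SE 0.32), and *Ctr9* of the PAF1 complex (0.67, SE 0.28), and below 0 *Mllt1* (-0.87, SE 0.58, at 0.46 to 3.45 RPM over the 6 libraries) and the FACT gene *Supt16* (-0.37, SE 0.22). *Ccnh* held 9.68, 12.6 and 20.1 RPM in Ctrl, against 24.6, 21.8 and 24.8 RPM in Kmt5b sKO, and *Supt16* 87.4, 65.5 and 66.1 against 49.8, 58.1 and 60.7 RPM.

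The gene bodies of the remaining DSIF and 7SK genes overlapped between genotypes. *Supt4a*, the small DSIF subunit gene, held 22.3, 18.8 and 15.2 TPM in its gene body over the Ctrl libraries, against 12.6, 22.6 and 14.1 TPM in Kmt5b sKO. *Mepce*, which caps the 7SK RNA, held 54.1, 49.8 and 35.7 TPM against 56.0, 45.9 and 61.6 TPM. *Hexim2*, the paralog of *Hexim1*, held 13.5, 10.3 and 7.03 TPM against 13.1, 12.3 and 16.5 TPM, with a log2 fold change of 0.46 (SE 0.24, limma adjusted p = 0.43). As in *Hexim1*, its Ctrl 3 was the lowest and its Kmt5b sKO 3 the highest library.

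The gene body profiles most like that of *Cdk9* over the 6 libraries, by the root mean square difference of centred log2 values among 12450 other genes, included those of *Celf2* (0.0390) and *Psmb5* (0.0483). *Celf2* held 58.0, 63.6 and 51.0 TPM in Ctrl, against 79.7, 73.9 and 73.4 TPM in Kmt5b sKO. Nearest to *Hexim1* were *Bloc1s3* (0.0471), *Csnk1g2* (0.0528) and *Pidd1* (0.0529), and *Bloc1s3* held 20.2, 16.9 and 12.1 TPM in Ctrl, against 20.9, 18.4 and 23.8 TPM in Kmt5b sKO. With 6 libraries this likeness describes these samples only.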

How the data were processed

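PRO-seq values of 3 Ctrl and 3 Kmt5b sKO MuSC libraries were used. Per the submitters' processing notes, tools included FastQC 0.11.8, Trimmomatic 0.39, STAR 2.6.1d and Picard 2.18.16. The authors aligned to GRCm38, kept 1 random position for multimapping reads, counted sense-strand reads per isoform and listed 1 isoform per gene. The TSS values that the authors deposited are RPM (their header says TPM, and all TSS regions have 1 length), and the deposited gene body values are TPM. Gene-level read counts were recovered here from the deposited steps (99.99% or more of TSS values whole within 0.1 read).

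Autosomal and mitochondrial genes whose TSS mean and gene body mean each reached 0.5 were tested on log2(value + 0.5) with limma 3.58.1 (lmFit, eBayes with a trend, R 4.3.3), genotype as the only term, Benjamini-Hochberg threshold 0.1, so fold changes of low genes are understated. The index was fitted without a pseudocount. edgeR 4.0.16 and DESeq2 1.42.0 on recovered reads, other pseudocounts, filters, centring, a replicate block and leaving out libraries were alternatives. Fits were tried on simulated data. The members, gene lists and motifs were chosen with earlier results of these data known. Named were the members, per region the 2 highest and 2 lowest other factors, the complex partners *Supt4a*, *Mepce* and *Hexim2* (outside that rule), and the 3 genes nearest to *Cdk9* and to *Hexim1*, of which 1 is not reported here. The *Cdk9*, *Ccnt2*, *Hexim1* and *Larp7* windows were chosen for their values. Tables and figures were made in Python 3.11.15 (matplotlib 3.10.9, pandas 2.3.3, numpy 2.4.6). Exon counts are from GENCODE M21, in which all 10 listed transcripts were found.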

Additional observations from a re-analysis of the deposited data

How the results depend on the processing

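No pausing or release gene passed the adjusted threshold in any of the alternatives, and 13 of the 30 log2 fold changes kept their sign in all of them. Those 13 include *Cdk9*, *Hexim1* and *Larp7* in the gene body, *Ccnt2*, *Hexim1* and *Nelfe* in the TSS region, and *Ccnt2*, *Nelfcd* and *Larp7* in the index. Over its alternatives the adjusted p of *Cdk9* in the gene body was 0.164 to 0.54 and that of *Larp7* 0.214 to 0.579. The other 17 changed sign in at least 1 alternative, and the cause was not tested. On recovered reads, edgeR and DESeq2 gave -0.038 and -0.050 for the *Nelfa* TSS region, and in gene bodies -0.083 and -0.089 for *Nelfe*, -0.025 and -0.031 for *Supt5*, and -0.017 and -0.023 for *Ccnt2*. Median-centred libraries gave -0.010 for the *Nelfa* TSS region, 0.00078 for the *Ccnt1* gene body and -0.052 for the *Ccnt1* index, which was -0.046 from unscaled reads per nt.

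Leaving out each library in turn gave TSS log2 fold changes of -0.038 to 0.17 for *Nelfa*, -0.057 to 0.26 for *Nelfb*, -0.42 to 0.18 for *Nelfcd*, -0.14 to 0.46 for *Supt5*, -0.47 to 0.21 for *Cdk9*, -0.21 to 0.11 for *Ccnt1* and -0.067 to 0.31 for *Larp7*. Gene body values ran from -0.20 to 0.053 for *Nelfb*, -0.19 to 0.41 for *Nelfcd*, -0.41 to 0.48 for *Nelfe*, -0.11 to 0.067 for *Supt5*, -0.015 to 0.018 for *Ccnt1* and -0.050 to 0.043 for *Ccnt2*. Index values ran from -0.11 to 0.11 for *Nelfa*, -0.14 to 0.48 for *Supt5*, -0.21 to 0.11 for *Ccnt1* and -0.084 to 0.61 for *Hexim1*.

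Of the other elongation factors, 1 (*Mllt3*) was called in the gene body with median-centred libraries, without a trend and by edgeR, and 3 (*Ell2*, *Mllt3* and *Ssrp1*) by DESeq2. Leaving out libraries gave 0 to 2 calls there, the 2 (*Ell2* and *Ssrp1*) without Ctrl 3. The labels state no pairing of same-numbered samples. The correlations of their deviations from the group means were -0.034 to -0.16 in the TSS region and -0.15 to -0.33 in the gene body. They show no positive part shared by number, and whether such samples were prepared together was not tested. With the replicate number as a block, 0 members were called, as without it, and the *Cdk9* gene body had an adjusted p of 0.504 (limma). In the gene body 0 of all tested genes were called under the block, against 372 without it. Over all tested genes the calls in the gene body were 372 with limma, 748 with edgeR, 1295 with DESeq2 and 0 to 836 when a library was left out (836 without Ctrl 3), and in the TSS region 207, 279, 295 and 1 to 408. Counts recovered from gene bodies under 2000 nt were whole for 99.4% to 100% of values. Among the 10 genes, the lowest TSS read count of any library was that of *Cdk9*, with 6 reads in Kmt5b sKO 2.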
